A study of Homo sapiens with 6 samples.

Results

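Transcripts of 9 genes of the LDL receptor family and the sortilin group were followed in MDA-MB-231, an established human line of triple negative breast cancer, after transfection with an siRNA against USP32 (siUSP32) or a control siRNA (siControl). The genes were taken by symbol and are the receptors VLDLR, LRP1, LRP5, LRP6, LRP8, LRP10, SORT1 and SORL1 and the chaperone gene LRPAP1. All 9 are among the 17646 genes listed in each table. USP32 is a deubiquitinase, an enzyme that removes ubiquitin from other proteins. Each group held 3 libraries made 48 h after transfection, all of 1 line, so that differences between lines were not sampled. Neither the sequence nor the number of the siRNAs is stated in the sources read here. Nothing says whether replicate libraries are separate cultures, and each p-value reflects only how far these 6 libraries scatter, which may be technical. The unit is FPKM, which divides fragments by transcript length and by the size of the library and so allows levels of different genes to be set side by side. Read depth is unknown.

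Members of the LDL receptor family cross the membrane once and carry cysteine-rich ligand-binding repeats, and many also beta-propellers, on the outer side. They bind lipoproteins, protease-inhibitor complexes or signalling proteins and carry them into endosomes, or act as signalling co-receptors. Sortilins carry a VPS10 domain and mostly sort proteins between the Golgi, endosomes and lysosomes, and SORL1 combines that domain with LDL receptor-type repeats. The proteins fold in the endoplasmic reticulum, where the LRPAP1 product, also called RAP, keeps ligands from binding too early.

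All 9 genes were lower in siUSP32 libraries, and for none of them did the groups overlap. Of all 12003 genes with a mean of at least 1 FPKM over the 6 libraries, 41.3% were lower by the same test (limma, Benjamini-Hochberg adjusted p under 0.05), and 43.2% had every siUSP32 value under every siControl value. VLDLR, LRP1, LRP6 and SORL1 reached that mean only through their siControl libraries. With no filter on low values the 9 genes were again called lower, against 33.8% of all 17646 listed genes. The summed FPKM of the 9 genes was 20.3 ± 0.391 in siUSP32 and 87.9 ± 0.758 in siControl libraries (SD, n = 3 each), a 4.33-fold fall. These are bulk libraries, in which fewer cells with a transcript and less of it per cell cannot be told apart.

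**Figure D1:**
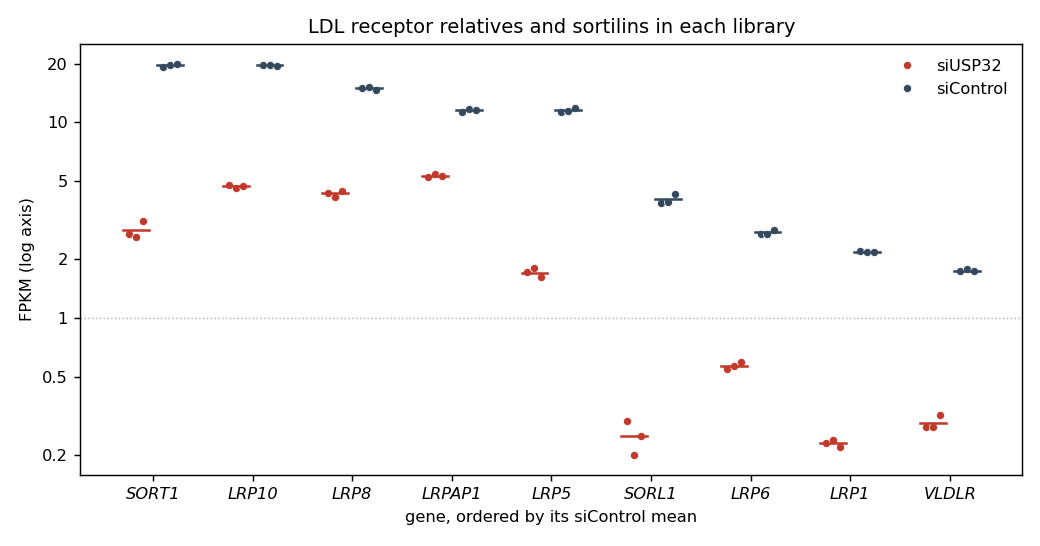
FPKM of each gene in each library on a log axis, with siUSP32 libraries in red left of siControl libraries in dark blue and bars at the group means of 3 libraries. The red points lie under the blue points for every gene, with 5.24 to 5.46 FPKM in siUSP32 against 11.3 to 11.7 FPKM in siControl libraries for LRPAP1 and 0.2 to 0.3 FPKM in siUSP32 against 3.9 to 4.31 FPKM in siControl libraries for SORL1, and the dotted line marks 1 FPKM.

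The promoters of the genes at the ends of this range are shown as a description. Whether they have a part in these differences was not tested. Windows of 300 bases, from 250 before to 50 after a transcript start, were matched by gene identifier in RefSeq on GRCh38.p14 for 8 of the 9 genes (not LRP6). SORL1 had the largest fold change of the 9, SORT1 the largest difference on the log2(FPKM + 1) scale and LRPAP1 the smallest on both. The windows are chr11:121452064-121452363 on the plus strand for SORL1, chr1:109397869-109398168 on the minus strand for SORT1 and chr4:3532373-3532672 on the minus strand for LRPAP1. Capitals mark the GC box, GGGCGG or its reverse complement CCGCCC, the letters recognised by Sp1.
SORL1: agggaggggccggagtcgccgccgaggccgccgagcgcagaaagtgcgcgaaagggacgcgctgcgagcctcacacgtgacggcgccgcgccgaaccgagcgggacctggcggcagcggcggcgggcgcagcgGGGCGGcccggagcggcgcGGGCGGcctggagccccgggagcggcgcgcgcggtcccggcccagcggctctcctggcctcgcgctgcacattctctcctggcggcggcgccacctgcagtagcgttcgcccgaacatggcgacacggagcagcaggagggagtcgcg
SORT1: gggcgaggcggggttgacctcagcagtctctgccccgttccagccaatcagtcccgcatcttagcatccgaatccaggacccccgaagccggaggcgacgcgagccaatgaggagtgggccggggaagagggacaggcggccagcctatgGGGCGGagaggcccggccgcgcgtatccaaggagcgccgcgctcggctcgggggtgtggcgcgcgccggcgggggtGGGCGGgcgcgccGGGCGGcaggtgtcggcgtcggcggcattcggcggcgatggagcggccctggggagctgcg
LRPAP1: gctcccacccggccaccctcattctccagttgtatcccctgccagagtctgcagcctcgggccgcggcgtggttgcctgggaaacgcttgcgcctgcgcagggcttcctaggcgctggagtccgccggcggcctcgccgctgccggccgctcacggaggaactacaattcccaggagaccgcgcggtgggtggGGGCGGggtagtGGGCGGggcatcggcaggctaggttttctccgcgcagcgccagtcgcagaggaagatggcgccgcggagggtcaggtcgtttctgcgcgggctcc
A GC box was present in 9 of the 10 windows of the 8 genes, with 2 in the SORL1, 3 in the SORT1 and 2 in the LRPAP1 window shown. The window without one belongs to a second start of SORT1, chr1:109393086-109393385 on the minus strand. It occurs in 66.8% of the 14417 windows of tested genes and in 45.0% of all 35116 windows. YAP acts on DNA through TEAD factors, whose core letters GGAATG or CATTCC were in none of the 10 windows of these genes and in 11.3% of the windows of tested genes (14.0% of all windows). The letters were searched on both strands, and neither motif contains the other. A match or its absence describes these letters in this window only.

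SORT1 encodes sortilin, which carries progranulin, prosaposin and other cargo to endosomes and lysosomes. It measured 2.71, 2.59 and 3.15 FPKM in siUSP32 libraries, against 19.28, 19.59 and 19.99 FPKM in siControl libraries. The siUSP32 values lay far under the siControl values, a 6.97-fold fall in the mean (log2 difference -2.44 ± 0.07, SE, limma adjusted p = 8.10e-09). SORL1, known for routing the amyloid precursor protein with retromer, measured 0.3, 0.2 and 0.25 FPKM in siUSP32 libraries, against 3.9, 3.92 and 4.31 FPKM in siControl libraries. The mean fell 16.2-fold, with ratios of single libraries between 13 and 21.6 as the siUSP32 values spread from 0.2 to 0.3 FPKM. Its log2 difference was -2.01 ± 0.07 (limma adjusted p = 2.39e-08). The ratio of SORT1 to SORL1 was 11.5 ± 2.17 in siUSP32 and 4.86 ± 0.194 in siControl libraries, without overlap.

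LRP5 and LRP6 encode the co-receptors that join Frizzled proteins to receive Wnt signals. LRP5 measured 1.72, 1.8 and 1.62 FPKM in siUSP32 libraries, against 11.26, 11.41 and 11.91 FPKM in siControl libraries. No siUSP32 library came near the siControl range, and the mean fell 6.73-fold (log2 difference -2.21 ± 0.06, limma adjusted p = 8.08e-09). LRP6 measured 0.55, 0.57 and 0.6 FPKM in siUSP32 libraries, against 2.71, 2.71 and 2.84 FPKM in siControl libraries. The mean fell 4.80-fold (log2 difference -1.25 ± 0.07, limma adjusted p = 2.53e-07). LRP5 exceeded LRP6 in every library, with an LRP5 to LRP6 ratio of 3.0 ± 0.256 in siUSP32 and 4.19 ± 0.0284 in siControl libraries.

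LRP8, also called ApoER2, and VLDLR are receptors for reelin and for lipoproteins. LRP8 measured 4.37, 4.18 and 4.49 FPKM in siUSP32 libraries, against 15.01, 15.11 and 14.69 FPKM in siControl libraries. It fell 3.44-fold, the least of the 8 receptors (log2 difference -1.58 ± 0.06, limma adjusted p = 3.04e-08). VLDLR measured 0.28, 0.28 and 0.32 FPKM in siUSP32 libraries, against 1.74, 1.78 and 1.74 FPKM in siControl libraries. The groups stood apart by a 5.98-fold fall in the mean (log2 difference -1.09 ± 0.07, limma adjusted p = 6.45e-07). In GENCODE 29 the antisense gene VLDLR-AS1 covers 7.90% of the exon bases of VLDLR, and 3 antisense genes cover 2.43% to 4.55% of those of LRP8 each. No source read here says whether counting used strand, so reads from such stretches cannot be told apart.

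LRP1 encodes a large scavenger receptor that clears proteases, their inhibitor complexes and other ligands. It measured 0.23, 0.24 and 0.22 FPKM in siUSP32 libraries, against 2.2, 2.18 and 2.19 FPKM in siControl libraries. Values of both groups were tight, and the mean fell 9.52-fold (log2 difference -1.37 ± 0.06, limma adjusted p = 1.29e-07). LRP10, a relative found in the Golgi and endosomes, measured 4.79, 4.65 and 4.74 FPKM in siUSP32 libraries, against 19.73, 19.58 and 19.39 FPKM in siControl libraries. Its mean fell 4.14-fold (log2 difference -1.84 ± 0.06, limma adjusted p = 9.26e-09). The chaperone gene LRPAP1, the only member without a receptor product, measured 5.24, 5.46 and 5.34 FPKM in siUSP32 libraries, against 11.31, 11.73 and 11.59 FPKM in siControl libraries. It was lower in each siUSP32 library, but its 2.16-fold fall was the smallest of the 9 (log2 difference -0.98 ± 0.06, limma adjusted p = 5.71e-07). An exact permutation test gave p = 0.1 for each of the 9 genes, the smallest that 3 against 3 libraries allow.

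The order of levels by FPKM differed between the groups, and the part of transcript length in this was not tested. In siUSP32 libraries LRPAP1 was the highest of the 9 at 5.35 FPKM, followed by LRP10 (4.73), LRP8 (4.35), SORT1 (2.82), LRP5 (1.71) and LRP6 (0.573), each apart from its neighbour. VLDLR, SORL1 and LRP1 came last at 0.293, 0.250 and 0.230 FPKM, and SORL1 overlapped with each of the other 2. Read depth is unknown, which limits the order among such low values. In siControl libraries SORT1 and LRP10 shared the top at 19.6 FPKM each, with overlapping values. LRP8 followed at 14.9 FPKM, then LRPAP1 and LRP5, which overlapped at 11.5 FPKM each, then SORL1 (4.04), LRP6 (2.75), LRP1 (2.19) and VLDLR (1.75). LRPAP1 made up 26.4% ± 0.862 of the summed FPKM of the 9 genes in siUSP32 and 13.1% ± 0.180 in siControl libraries, and SORT1 made up 13.9% ± 1.18 in siUSP32 and 22.3% ± 0.217 in siControl libraries (SD, n = 3 each).

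The size of these differences depended on the scale, though not their direction. The pseudocount of 1 understates the change of genes near or under 1 FPKM. With a pseudocount of 0.1 the log2 difference was -3.57 for SORL1, -2.80 for LRP1, -2.24 for VLDLR and -2.08 for LRP6. Differences in this experiment also went with transcript length. The slope of a library's deviation per doubling of length was -0.239 to -0.121 on the log2 scale in siUSP32 and 0.168 to 0.174 in siControl libraries. After correction for length on the log2(FPKM + 1) scale, LRPAP1 stood at -0.42 (limma adjusted p = 6.36e-04), VLDLR at -0.56, LRP6 at -0.71 and LRP1 at -0.77. SORT1 stood at -1.98, LRP5 at -1.87, SORL1 at -1.45, LRP10 at -1.40 and LRP8 at -1.10. All 9 genes were still called lower, where 35.1% of 11956 tested genes were. Scaled by TPM all 9 were lower among 62.1% of tested genes, and at a minimum mean of 5 FPKM the 5 members left were lower among 35.5%.

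**Figure D2:**
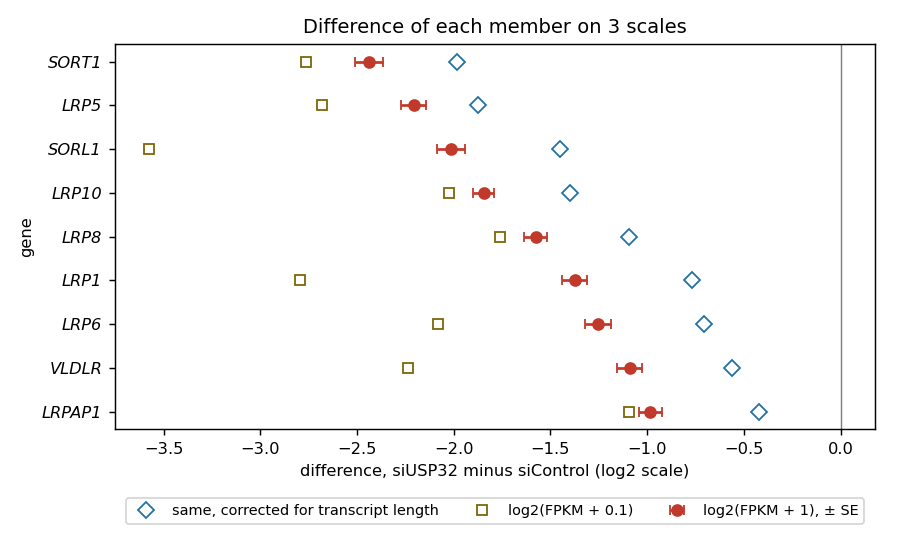
Difference of each gene between siUSP32 and siControl libraries on the log2 scale, as log2(FPKM + 1) with its SE (filled circles), corrected for transcript length (diamonds) and with a pseudocount of 0.1 (squares). Every symbol lies left of 0, from -0.42 for length-corrected LRPAP1 to -3.57 for SORL1 with the smaller pseudocount.

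Transcript length was not used in choosing these genes. They were chosen as membrane receptors, many of a family with cysteine-rich repeats, and their chaperones. The segments and the cysteine content given here are therefore a description. The transcripts of these genes in GENCODE 29 run from 5159 bases (LRP5) to 14897 bases (LRP1), against a median of 3049 bases over tested genes. Each protein has at least 1 hydrophobic segment, a run of 19 residues whose Kyte-Doolittle hydropathy averages 1.6 or more, as membrane spans and signal peptides have. Cysteine made up 7.67% of the residues of VLDLR, 7.28% of LRP1 and 6.54% of LRP8, against a median of 1.87% over tested genes, and 0% of those of LRPAP1.

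Genes that share both features were also low as a class. Of 931 tested genes with a hydrophobic segment and a transcript of at least 5159 bases, 82.2% were called lower, with a median difference of -0.76 on the log2(FPKM + 1) scale. Among the 1584 genes of that length without a segment the share was 65.5% and the median -0.36. The 9 genes had a median of -1.58, against -0.06 over all tested genes, and each lay under the median of the 931. But VLDLR, LRP1, LRP6 and SORL1 reached the minimum mean only through siControl libraries. The place of these genes among the 931 carries no weight by itself. With no filter on low values the median of the 9 was again -1.58, against -0.03 over all listed genes. Within those 931, 5.05% had a lower difference than SORT1, 7.41% than LRP5, 10.5% than SORL1, 13.6% than LRP10 and 19.8% than LRP8. The share was 24.2% for LRP1, 27.6% for LRP6, 32.3% for VLDLR and 37.6% for LRPAP1. The part of length, of segments and of the higher FPKM total in siUSP32 libraries (855573 to 948641, against 686376 to 694831 in siControl libraries) in these differences was not tested beyond the values given here.

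**Figure D3:**
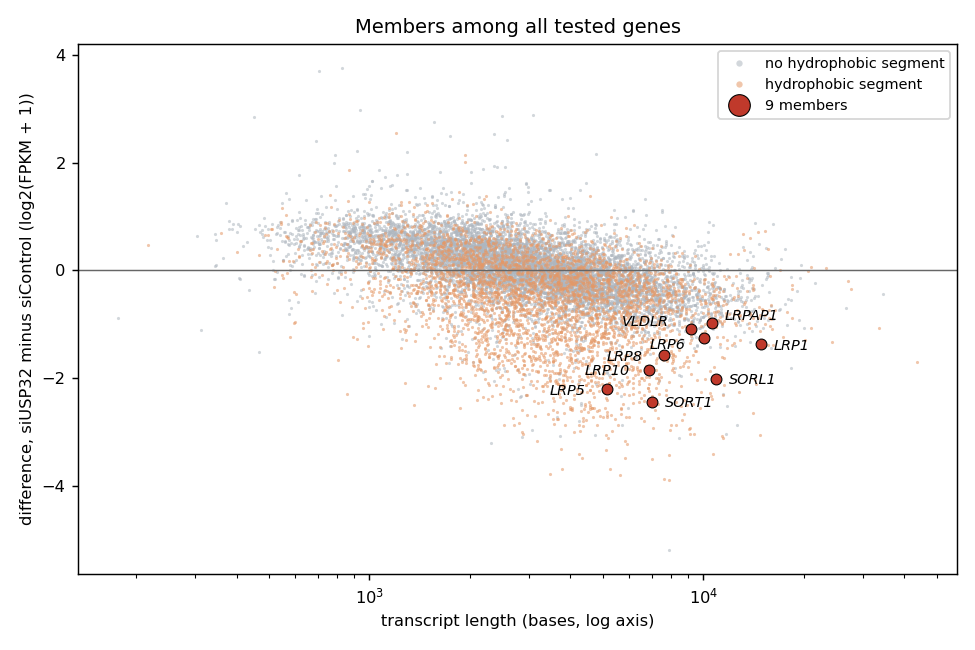
Difference between siUSP32 and siControl libraries on the log2(FPKM + 1) scale against transcript length in bases on a log axis, for tested genes whose protein has a hydrophobic segment (orange), for those without one (grey) and for the 9 genes (red). The 9 genes lie at 5159 bases or more and between -2.44 and -0.98, in the lower part of the orange points.

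The pathway around these receptors was read from 9 lists written from general knowledge, with 187 of 188 genes listed and 156 tested. Of the tested genes 107 were lower, 29 higher and 20 not past the test. Background shares were 41.3% lower and 33.3% higher over all tested genes. Of the 3898 tested genes with a hydrophobic segment 62.5% were lower and 18.7% higher. Of the 8058 without one 31% were lower and 40.5% higher. The lists whose products enter the endoplasmic reticulum were mostly lower, and those of cytosolic coats and transducers were mixed. With TPM these mixed lists were mostly lower, where 62.1% of all tested genes were. Of the 156 genes 14 reached the minimum mean only through siControl libraries and 1 only through siUSP32 libraries. With no filter 117 of the 187 were lower and 30 higher, where 33.8% of all listed genes were lower.

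Of 12 further relatives, 4 were tested, of which 3 fell and 1 rose (median -1.08). LRP12 fell 7.99-fold to 1.28 ± 0.284 FPKM in siUSP32, against 10.2 ± 0.183 FPKM in siControl libraries, and LRP11 fell 3.44-fold. LRP3 rose to 36.1 ± 3.42 FPKM in siUSP32, against 30.0 ± 0.838 FPKM in siControl libraries (log2 difference 0.26, limma adjusted p = 0.00849), but stood at -0.11 and was not called when libraries were scaled to the same sum (TPM). The other 8, LRP1B, LRP2, LRP4 and the SORCS genes among them, had a mean under 1 FPKM. Of these, LRP4 was at 0.133 FPKM in siUSP32 and 1.15 FPKM in siControl libraries. With no filter 5 of the 12 were lower and 1 higher, where 33.8% of all listed genes were lower.

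Of 18 tested ligands and cargo proteins 15 fell, 2 rose and 1 did not pass (median -1.21). PSAP, the prosaposin gene whose product sortilin carries, fell 8.22-fold to 32.2 ± 2.35 FPKM in siUSP32, against 264 ± 4.70 FPKM in siControl libraries, and PLAT, a plasminogen activator cleared by LRP1, fell 7.46-fold to 54.6 ± 1.23 FPKM in siUSP32, against 408 ± 7.53 FPKM in siControl libraries. The neurotrophin gene BDNF rose to 4.58 ± 0.157 FPKM in siUSP32, against 3.53 ± 0.281 FPKM in siControl libraries, with a call that TPM scaling ended (log2 difference 0.0065).

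Around LRP5 and LRP6, 26 of 35 listed Wnt ligands, receptors and surface regulators were tested and fell (median -1.17), but 8 of these reached the minimum mean only through siControl libraries, so their count carries no weight by itself. With no filter on low values 31 of the 35 were lower and 0 higher (median -0.97), where 33.8% of all listed genes were lower. After quantile normalization 24 of the 26 were called lower and 0 higher, and likewise with the length correction. PORCN, the enzyme that acylates Wnt proteins, fell 3.21-fold to 32.5 ± 0.912 FPKM in siUSP32, against 104 ± 1.55 FPKM in siControl libraries, and WNT11 fell 6.10-fold to 1.97 ± 0.0400 FPKM in siUSP32, against 12.0 ± 0.649 FPKM in siControl libraries. Of 24 cytosolic and nuclear Wnt transducers 13 fell, 6 rose and 5 did not pass (median -0.25). With TPM 16 fell and 0 rose, where 62.1% of all tested genes were lower. After quantile normalization 9 fell and 7 rose. BCL9L, a co-activator of beta-catenin, fell 2.16-fold and TCF7L2, a DNA-binding partner of beta-catenin, fell 1.98-fold, while DVL2, a scaffold that binds Frizzled, rose 1.46-fold and the kinase gene CSNK1E rose 1.29-fold. With TPM neither rise was called (log2 differences 0.17 and -0.0081), and the length correction took BCL9L from -1.03 to -0.48.

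Of 13 folding factors of the endoplasmic reticulum 12 fell and 1 rose (median -1.54). CANX and HSP90B1, general chaperones of membrane and secreted proteins, fell 8.07-fold and 6.09-fold. The member that rose was MESD, the dedicated chaperone of LRP5 and LRP6, at 7.48 ± 0.360 FPKM in siUSP32 and 4.57 ± 0.257 FPKM in siControl libraries (log2 difference 0.61 ± 0.07, limma adjusted p = 4.06e-05). It stood at 0.30 with TPM and 0.85 with the length correction, called in both, so that this chaperone rose while its client genes LRP5 and LRP6 and the other chaperone gene LRPAP1 fell. Of 15 genes of receptor cleavage and turnover 13 fell, 1 rose and 1 did not pass (median -1.23). The membrane protease gene MMP14, whose product can cleave LRP1, fell 6.91-fold to 2.24 ± 0.151 FPKM in siUSP32, against 15.5 ± 0.0306 FPKM in siControl libraries, and NCSTN, a gamma-secretase subunit, fell 5.51-fold. PSENEN, another gamma-secretase subunit, rose to 170 ± 17.4 FPKM in siUSP32, against 125 ± 1.38 FPKM in siControl libraries, was 0.17 with the length correction in place of 0.43, and lost its call with TPM (log2 difference 0.06).

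The machinery that moves these receptors had both directions on the FPKM scale. Scaled by TPM it mostly fell, where 62.1% of all tested genes were lower. Of 21 clathrin and endocytic adaptor genes 9 fell, 8 rose and 4 did not pass (median -0.08), shares near those over all tested genes. The clathrin light chain genes CLTB and CLTA rose 1.99-fold and 1.65-fold (log2 differences 0.98 and 0.72, length-corrected 0.56 and 0.28), and the adaptor genes EPN2 and ITSN1 fell 1.9-fold and 1.77-fold (-0.87 and -0.72, length-corrected -0.56 and -0.10, the second not called). Scaled by TPM 14 fell and 4 rose, near the share over all tested genes. The length correction gave 5 lower and 9 higher, where 35.1% of tested genes were lower. Of 25 genes of retromer, Commander, GGA and AP-1 coats, which recycle or sort sortilins and LRP proteins, 7 fell, 10 rose and 8 did not pass (median 0.03). With TPM 16 fell and 2 rose, again near the share over all tested genes. COMMD1 and VPS26C, both of the Commander complex, rose 1.59-fold and 1.51-fold (log2 differences 0.65 and 0.55, with TPM 0.29 and 0.21, the second not called), and COMMD1 was 0.14 with the length correction. The AP-1 subunit genes AP1G1 and AP1S3 fell 2.06-fold and 2.27-fold (-0.94 and -0.82, length-corrected -0.49 and -1.34).

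Other endocytic and lysosomal sorting receptors, which share the route but not the family, fell as well, 9 of 10 tested, with 1 not past the test (median -2.17). Of these 10, 3 reached the minimum mean only through siControl libraries. With no filter 9 of 16 were lower and 0 higher (median -1.25), where 33.8% of all listed genes were lower. IGF2R, the large mannose 6-phosphate receptor, fell 14.7-fold to 0.620 ± 0.0800 FPKM in siUSP32, against 9.13 ± 0.172 FPKM in siControl libraries, and SCARB2, the receptor for glucocerebrosidase, fell 8.28-fold to 6.45 ± 0.457 FPKM in siUSP32, against 53.5 ± 0.647 FPKM in siControl libraries. The median of the 9 LDL receptor relatives and sortilins (-1.58) lay between those of these receptors and of the Wnt surface genes, and whether the lists differ from each other was not tested.

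**Figure D4:**
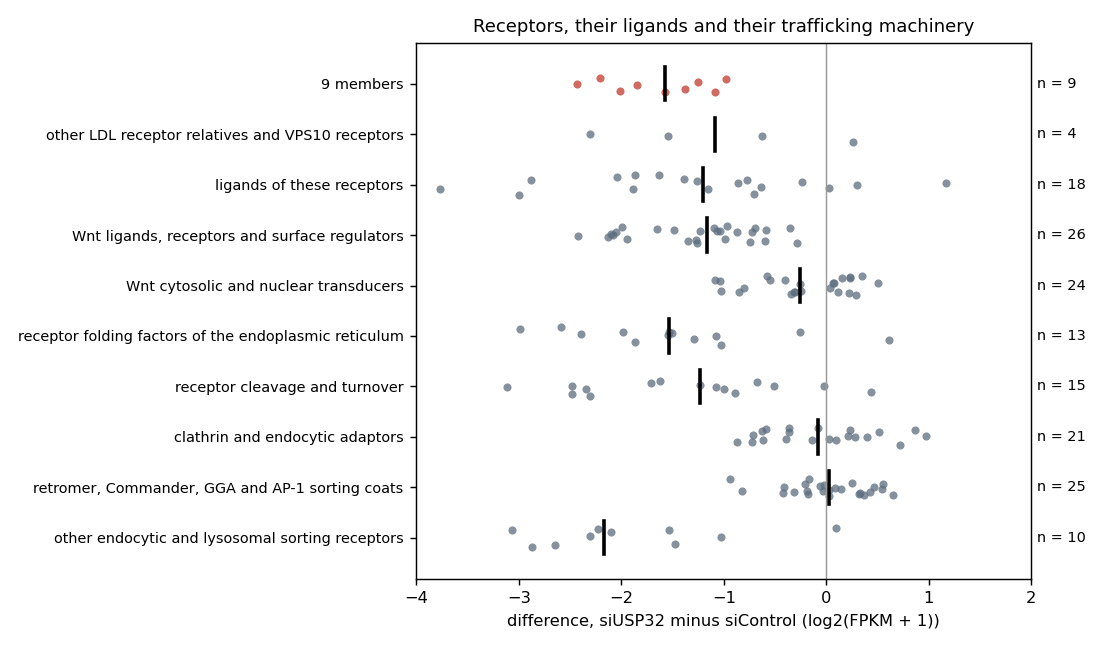
Difference of each tested gene between siUSP32 and siControl libraries on the log2(FPKM + 1) scale, for the 9 genes (red) and for 9 lists around them (grey), with list medians as black bars and the number of tested genes at the right. Receptors, ligands, Wnt surface genes, folding factors and cleavage genes have medians between -2.17 and -1.08, and transducers, clathrin adaptors and sorting coats between -0.25 and 0.03.

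By distance between log2(FPKM + 1) profiles centred over the 6 libraries, among 11994 other tested genes, the genes nearest to VLDLR were CALR (distance 0.03, difference -1.08), CALHM3 (0.07, -1.09) and SLC7A2 (0.07, -1.07). CALR, an abundant chaperone gene, was at 329 FPKM in siUSP32 and 695 FPKM in siControl libraries, a 2.11-fold fall, so a profile alike on this scale did not mean an equal fold. The genes nearest to LRP1 were TAP1 (0.05, -1.35), DDOST (0.05, -1.34) and AQP1 (0.06, -1.38).

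The libraries fitted their labels in the gene targeted. USP32 measured 2.0, 1.88 and 2.01 FPKM in siUSP32 libraries, against 7.5, 7.48 and 8.32 FPKM in siControl libraries. Of 8 markers of the mesenchymal line all had a mean of at least 1 FPKM, with 5 lower and 2 higher, and their summed FPKM was 4055 to 4488 in siUSP32 and 4290 to 4412 in siControl libraries. Most of that sum is VIM and S100A4, both higher in siUSP32 libraries (S100A4 not called with TPM and lower with the length correction), and it does not show the 39.6-fold fall of FN1, the 13.2-fold fall of ITGB1, the 3.86-fold fall of AXL or the 3.15-fold fall of CD44. In siUSP32 against siControl libraries, summed markers were 6.92 to 7.43 against 15.7 to 16.4 FPKM for hormone receptors and HER2, 5403 to 6139 against 5338 to 5382 FPKM for luminal epithelium, 4.92 to 5.83 against 6.94 to 8.46 FPKM for blood cells, 0.440 to 0.470 against 1.01 to 1.17 FPKM for endothelium, and 1.67 to 1.94 against 3.02 to 3.27 FPKM for hepatocytes and neurons. The luminal sum is mostly KRT8 and KRT18, neither called on the FPKM scale and both lower with TPM. Of the other luminal markers EPCAM fell 2.48-fold, and ELF3 rose 1.14-fold but was lower with TPM. CDH1 was at 0.0167 FPKM in siUSP32 and 0.473 FPKM in siControl libraries. Of the 4 blood markers listed only CD14 had a mean of at least 1 FPKM, and of the 4 endothelial markers none did. The part of these markers in the result was not tested.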

How the data were processed

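RNA of 3 siUSP32 and 3 siControl libraries of MDA-MB-231 cells was sequenced on an MGISEQ-2000 system, per the labels' protocols. The deposited values are FPKM with 2 decimals, 1 table per library, per the file headers, and the submitters' processing notes name genome build GRCh38.p13. Aligner, counting tool, annotation, filters and strand: not given in the sources used here. FPKM are not counts, so no count model was used, and depth and counting intervals are unknown.

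The scale of analysis was log2(FPKM + 1), over 12003 genes with a mean of at least 1 FPKM, in limma 3.58.1 in R 4.3.3 (mean-variance trend, no covariate, 2-sided, Benjamini-Hochberg over all tested genes). Differences are siUSP32 minus siControl, and folds divide mean FPKM with no pseudocount. The fit was tested on simulated data. Transcript length, exon overlap and protein features came from GENCODE 29 on GRCh38 (per gene the principal transcript, the longest coding one among several), found for 99.6% of tested genes, which need not be the one the authors used. For the length correction, a robust loess curve (span 0.5) was taken through each library's deviations from the mean of the 6 libraries. Named list genes are up to 2 rises and 2 falls per list with the smallest adjusted p, and the nearest 3 profiles to VLDLR and LRP1. A gene this rule names is not reported here. The members, lists and alternatives were chosen with earlier results of these data known. Between libraries of a group, 0.450% to 0.783% of tested genes had equal values, so none was a copy of another one. Protein features were computed on translated coding sequences.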

Additional observations from a re-analysis of the deposited data

How the results depend on the processing

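Across 15 alternatives each of the 9 members kept its direction and its call wherever it was tested. A minimum mean FPKM of 5 left 5 members, all called lower, since VLDLR, LRP1, LRP6 and SORL1 are below it. Over all genes 4001 were higher and 4956 lower. With TPM these were 1716 and 7453, and the minimum of 5 gave 3577 and 3068. TPM moved the median of all genes from -0.06 to -0.39, and quantile normalization moved it to 0.10. It was 0.06 with median-ratio scaling and 0.05 over the genes left at the minimum of 5. Median-ratio scaling gave 4912 genes higher and 4166 lower. Relative to the median of all genes, that of the 9 members was -1.51 as reported, -1.56 by TPM and -1.41 by quantile normalization. The same quantity was -1.11 with the length correction and -2.16 with a pseudocount of 0.1. Of the 156 tested pathway genes 29 were higher, against 8 with TPM. LRP3 and CSNK1E changed sign with TPM, to -0.11 and -0.0081, neither called. Leaving out each library gave 3692 to 4276 genes higher and 4556 to 5083 lower, 9 members lower each time, and 104 to 110 pathway genes lower and 26 to 30 higher. The same replicate numbers in both groups are not said to mark a shared batch. With the replicate number as a block 4016 genes were higher and 4979 lower, and the 9 members remained called. Deviations of same-numbered libraries correlated at -0.0766, 0.0706 and 0.119, so the numbers were not taken to pair the samples. Values near 0.2 FPKM, of unknown depth, limit the folds of SORL1, LRP1 and VLDLR.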
